A study of Mus musculus with 36 samples.

Results

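Lung tumours driven by the EML4-ALK fusion of variant 1 were compared between 2 guides: sgSetd2, which targets the histone methyltransferase gene Setd2, and sgNeo, the control guide that leaves Setd2 intact. The comparison took the 18 Variant 1 tumours among the 36 of the series by their sample group label, 9 labelled Variant 1 Neo and 9 labelled Variant 1 Setd2. The titles carry codes, 3 per group with 3 tumours each: CE467, CE468 and CE472 for sgNeo, and CE475, CE479 and CE483 for sgSetd2. RNA was sequenced from mouse lung cells that were labelled neoplastic and sorted for EGFP, a green fluorescent reporter. Both groups carry the same fusion and differ by the guide alone, as far as the labels go. The sources used here give neither strain, age, time after tumour start nor vector, and do not say what a code stands for. The 3 tumours of each code were added up into 1 count per gene, so n = 3 codes per group, and the p-values measure the spread between codes, which may be in part technical. That spread was estimated over all 12 codes of the series, those labelled Variant 3 Neo and Variant 3 Setd2 included. A gene is called where its Benjamini-Hochberg adjusted p is under 0.05 in the edgeR quasi-likelihood test over all 20009 genes tested. Levels are in CPM, the count of a gene set against its library's scaled total, and each fold change is sgSetd2 over sgNeo.

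EML4-ALK joins the kinase domain of ALK to the oligomerising part of EML4, and signals without ligand through the MAPK, STAT3 and PI3K pathways. SETD2 places the trimethyl mark on lysine 36 of histone H3 along the bodies of transcribed genes, a mark that is read by factors of splicing, DNA methylation and DNA repair. It is a tumour suppressor that is recurrently lost in lung adenocarcinoma, a cancer whose mouse models often keep features of the alveolar type 2 (AT2) cell, the surfactant-making cell of the alveolus.

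Libraries held 17.9 M to 77.1 M counts in the sgNeo tumours (median 26.9 M) and 22.6 M to 49.0 M in the sgSetd2 tumours (median 38.7 M). The AT2 marker Sftpc, the surfactant protein C gene, was high in all 18 tumours. It stood at 21087 to 159997 CPM in sgNeo and at 47165 to 121616 CPM in sgSetd2. Among markers of other cells, 2 of 20 macrophage genes (Adgre1, Fcgr1), 1 of 8 neutrophil genes (Csf3r) and 3 of 10 T and NK cell genes (Cd3e, Cd8a, Nkg7) were at 0 in all 18 tumours, and the other members were not. The macrophage genes summed to 4.29 to 251 CPM in sgNeo and 6.20 to 21.6 CPM in sgSetd2, the neutrophil genes to 0 to 1.66 and 0 to 10.3 CPM, and the T and NK cell genes to 0 to 3.50 and 0.0419 to 3.63 CPM. The 11 fibroblast genes summed to 58.8 to 544 and 63.8 to 243 CPM, the 7 smooth muscle and pericyte genes to 0.759 to 135 and 1.29 to 21.5 CPM, and the 9 endothelial genes to 0.400 to 2.43 and 0.538 to 13.2 CPM. No gene of these 6 lists was called. The 9 erythroid and platelet genes summed to 27.7 to 727 CPM in sgNeo and 17.4 to 116 CPM in sgSetd2, and 1 of them, Pf4, was called lower. The part of these other cells in the results was not tested. In each sgNeo code 1 tumour was highest in the 39 cell cycle genes: tumour 1 of CE467, tumour 1 of CE468 and tumour 2 of CE472. Their mean log2(CPM + 1) over that list was 5.12, 4.70 and 5.29, against 2.37 to 4.11 in the other 6 sgNeo tumours and 2.57 to 3.59 in the 9 sgSetd2 tumours. These 3 tumours, picked by that measured value and named the 3 cycling sgNeo tumours from here on, are described beside the others with no test between them, and results are given with and without them. They held the top of the smooth muscle and fibroblast sums above, 135 and 544 CPM, where the other 6 sgNeo tumours reached 19.3 and 154 CPM. They were also deeply sequenced, with 40.7 M to 67.3 M counts, so that they weigh heavily in their codes' sums. The 11 mitochondrially encoded genes summed to 9502 to 18148 CPM in these 3, 10603 to 53142 CPM in the other 6 sgNeo and 8427 to 17905 CPM in the sgSetd2 tumours. All 11 had a negative fold change and 0 were called, with a median of -0.51 on the log2 scale, or -0.90 without the 3. The part of this in other results was not tested. CE475 is the only male code of the 6, by its level of a Y-linked gene.

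The targeted gene was lower in every sgSetd2 code. Setd2 (ENSMUSG00000044791.16, chr9:110532597-110618633, plus strand, GRCm38) measured 71.0, 53.5 and 78.5 CPM in the sgNeo codes and 39.0, 38.7 and 34.5 CPM in the sgSetd2 codes. The codes do not overlap, while the tumours do in part: sgNeo ran from 43.5 to 94.6 (median 62.0) and sgSetd2 from 27.4 to 46.4 (median 38.8) CPM, and 6 of 9 sgSetd2 tumours lay below all sgNeo tumours. On the log2 scale the difference was -0.86 (SE 0.22), with an adjusted p of 0.0825 by edgeR, which misses the threshold. An exact two-sided permutation test over the 3 and 3 codes gave p = 0.1, the smallest this design can give. DESeq2 on the same sums gave an adjusted p of 0.00751 at a log2 fold change of -0.84. Without the 3 cycling sgNeo tumours the log2 fold change was -0.91. Counts per gene include transcripts that carry an edit, so they do not measure how many alleles were cut.

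Of the 15 enzymes that write or erase methylation of this lysine, only Smyd2 was called. Smyd2, a lysine methyltransferase, measured 15.1, 14.9 and 14.7 CPM in sgNeo and 7.18, 6.74 and 5.46 CPM in sgSetd2 codes, with no overlap. With an adjusted p of 0.0115 it fell by 1.21 on the log2 scale, SE 0.17, and without the 3 cycling sgNeo tumours the value was -0.68 and no longer called. The other 14 include Setd2 itself and the methyltransferase genes Nsd1 (76.1 and 62.8 CPM), Nsd2 (43.9 and 33.0 CPM) and Nsd3 (46.4 and 56.5 CPM), given as the mean over codes in sgNeo and then sgSetd2. The median log2 fold change over the 15 was -0.13, against -0.01 over all genes tested. None of the 17 readers and partners of the mark was called. Eml4 and Alk were counted as whole genes, which does not tell transcripts of the fusion from others. Eml4 measured 44.2 ± 1.33 and 55.6 ± 3.44 CPM and Alk 25.6 ± 2.87 and 29.7 ± 2.99 CPM (SD, n = 3 codes), with adjusted p-values of 0.248 and 0.559.

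Between the guides 284 of 20009 genes were called, 1.42% of those tested. Of these, 140 (0.700%) were higher and 144 (0.720%) lower in sgSetd2, and 107 and 108 of them by at least 2-fold. The median log2 fold change was 1.43 over the higher and -1.56 over the lower genes. That of the higher genes is the same with the 11 genes that have at most 3 sgNeo counts at their bound, since all 11 bounds lie above it. The sgNeo and sgSetd2 codes were apart for all 284, which holds for 24.0% of all genes tested. Single tumours of the 2 guides did not overlap for 0.290% of all genes. All 9 sgSetd2 tumours were above all 9 sgNeo tumours for 20 of the 140 higher genes, against 0.225% of all genes, and below them for 3 of the 144 lower genes, against 0.0650%. Those 3 were Fam234b, Gfer and Gcdh, named after their values were seen. With the 3 cycling sgNeo tumours set aside, the remaining 6 did not overlap the 9 sgSetd2 tumours for 20 higher genes, against 0.420% of all genes, and for 5 lower genes, against 0.200%.

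Many of the lower genes were highest in the 3 cycling sgNeo tumours. All 3 stood above each of the other 15 Variant 1 tumours for 82 of the 144 lower genes, and below the other 15 for 25 of the 140 higher genes. Over all genes tested, all 3 stood above the other 15 for 540 genes (2.70%) and below them for 244 (1.22%). These tumours are part of the sums by which the genes were called, so the counts describe the called genes and are no test of them. Leaving these 3 tumours out kept the sign of all 140 higher genes and of 143 of the 144 lower genes. The median log2 fold change then was 1.02 for the higher and -0.74 for the lower genes, and 130 and 82 of them kept at least 50% of their log2 change. With 6 sgNeo tumours left, 15 of 19541 genes were called (0.0768%), 13 higher and 2 lower, of which 10 are among the 284. The plot of fold changes with and without these tumours shows both groups.

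**Figure D1:**
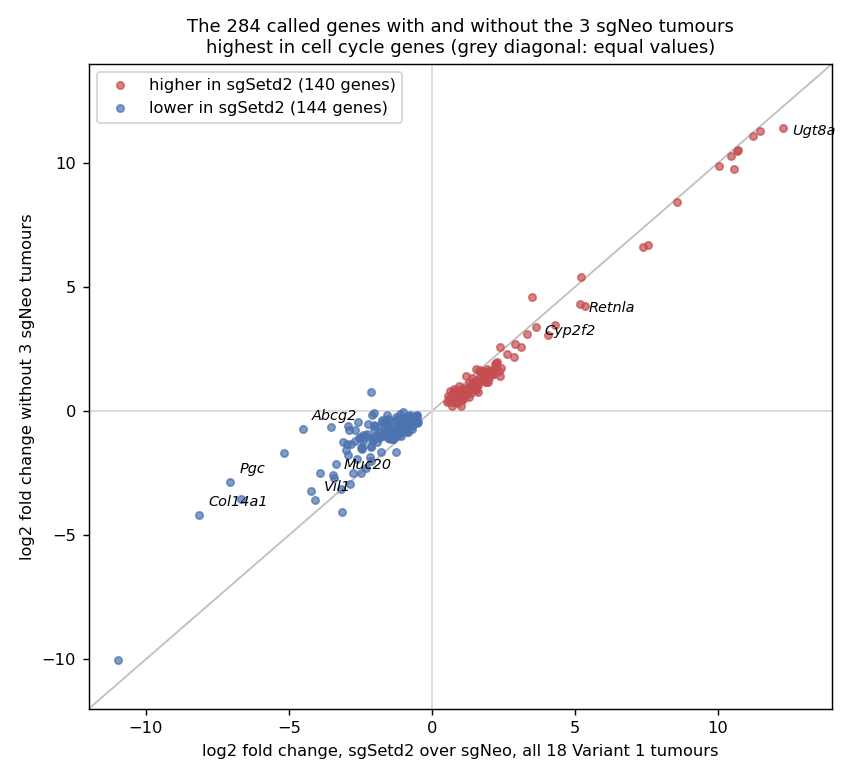
The log2 fold change (sgSetd2 over sgNeo) of the 284 called genes with all 18 Variant 1 tumours (horizontal axis) and without the 3 sgNeo tumours highest in cell cycle genes (vertical axis); each point is 1 gene, red for the 140 higher and blue for the 144 lower genes. Red points stay near the grey line of equal values, with a median of 1.02 in place of 1.43, and many blue points move towards 0, with a median of -0.74 in place of -1.56.

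Single sgSetd2 tumours differed as well. Tumour 4 of CE479 was, of the 9 sgSetd2 tumours, the one nearest to sgNeo for 88 of the 140 higher genes and 75 of the 144 lower genes. Its Setd2 level, 45.0 CPM, was the second highest of the 9, below the 46.4 CPM of tumour 2 of CE475. Without that tumour 495 genes were called, 224 higher and 271 lower. It was also highest of the 18 tumours in the list Heat shock chaperones (14 genes), with a mean log2(CPM + 1) of 10.2 against 7.05 to 8.57 in the others; the part of this in its other values was not tested. On the sgNeo side, tumour 2 of CE472 was farthest from sgSetd2 for 53 higher and 76 lower genes, and without it 17 genes were called.

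A few genes held their call whichever code or tumour was left out. In each of those 24 refits edgeR called the higher genes Retnla, Cyp2f2, Ugt8a, Steap4 and Togaram2 and the lower gene Gja3. All 5 higher ones were also called without the 3 cycling sgNeo tumours, as were Cp, Fga, Kcnip4 and 6330403K07Rik, the last 2 named after their values were seen. The 1 lower gene called both ways was Gm2694, a predicted gene that was also named after its values were seen: 4.31, 6.59 and 4.10 CPM in sgNeo codes, 0.374, 0.457 and 0.875 CPM in sgSetd2 codes (log2 fold change -3.14, adjusted p 0.0308) and -4.05 without the 3 (adjusted p 0.0387). The plot of levels by tumour shows 12 genes, among them 4 of these.

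**Figure D2:**
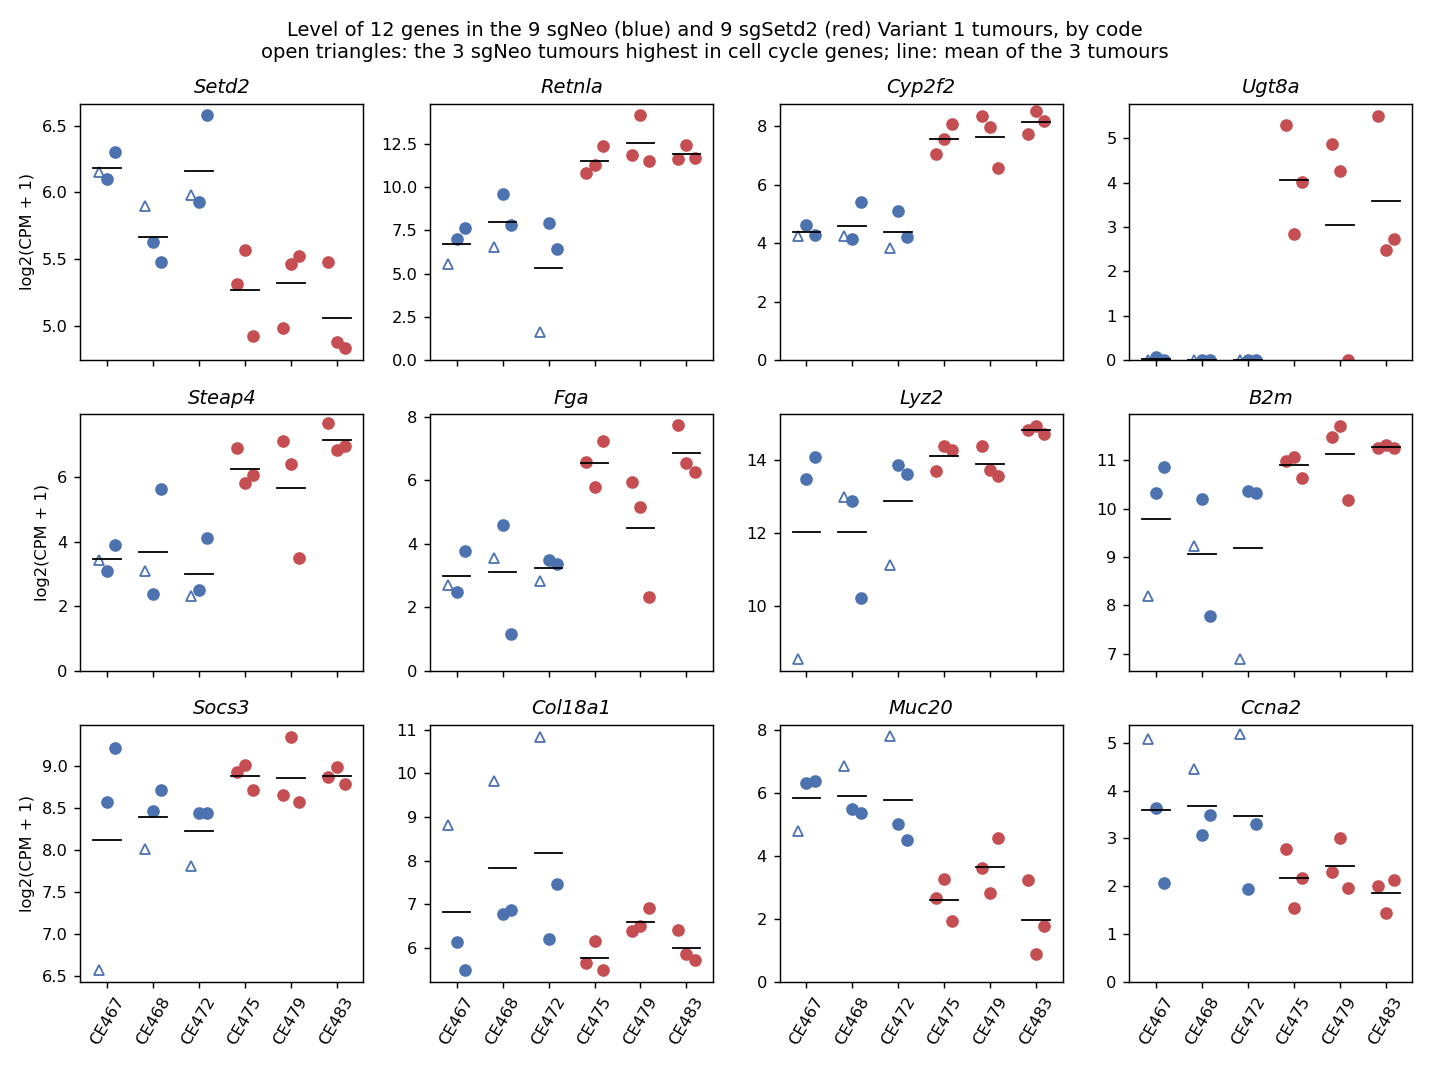
Level of 12 genes as log2(CPM + 1) in each of the 9 sgNeo tumours (blue; CE467, CE468, CE472) and 9 sgSetd2 tumours (red; CE475, CE479, CE483); open triangles are the 3 sgNeo tumours highest in cell cycle genes and each line is the mean of 3 tumours. Retnla and Cyp2f2 separate all 18 tumours, Ugt8a is at 0 in 1 sgSetd2 tumour, and Col18a1 and Ccna2 are highest in the 3 triangles; vertical axes differ between genes and some do not start at 0.

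Retnla (chr16:48842551-48844461) encodes a secreted resistin-like protein linked to type 2 immunity. It measured 101, 263 and 66.8 CPM in the sgNeo codes and 3380, 7929 and 4134 CPM in the sgSetd2 codes. All 9 sgSetd2 tumours (1800 to 18624, median 3321 CPM) were above all 9 sgNeo tumours (2.13 to 779, median 126 CPM). That is 5.16 on the log2 scale, with an SE of 0.56 and an adjusted p of 0.00621, and 4.30 without the 3 cycling sgNeo tumours. The annotated transcripts of Retnla share no 50-base stretch with those of Retnlg, Retnlb or Retn, its family members. Retnlg averaged 3.47 ± 3.00 and 20.9 ± 14.3 CPM and missed the threshold (adjusted p 0.0867).

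Cyp2f2 (chr7:27119909-27133660), a cytochrome P450 of the airway club cell, varied little between the sgNeo codes, at 19.4, 22.6 and 17.7 CPM. The 9 sgNeo tumours ran from 13.3 to 41.7 CPM. In sgSetd2 the codes measured 210.3, 230.3 and 299 CPM and the tumours 95.6 to 373 CPM (median 253), again with no overlap between tumours. At an adjusted p of 0.00801 it rose by 3.63 (log2, SE 0.45), and by 3.38 without the 3 cycling sgNeo tumours.

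Togaram2 (chr17:71673261-71729669), a TOG-domain protein of the microtubule and cilium family, measured 32.6, 26.2 and 21.7 CPM in sgNeo and 97.4, 93.0 and 102 CPM in sgSetd2 codes. Tumours ran from 5.03 to 45.0 and from 51.4 to 126 CPM and did not overlap. It rose by 1.86 (log2, SE 0.19, adjusted p 0.00464). Cp, for the copper-carrying ferroxidase ceruloplasmin (chr3:19957054-20009145), did not overlap between tumours either: 22.9 to 165 CPM in sgNeo and 177 to 559.6 CPM in sgSetd2. Its codes measured 127, 89.8 and 143 CPM against 266, 415 and 361 CPM. It rose by 1.54 (log2, adjusted p 0.0115, SE 0.21), and by 1.68 without the 3 cycling sgNeo tumours.

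Steap4 (chr5:7960457-7982213), a metalloreductase of the plasma membrane that reduces iron and copper, measured 11.8 ± 2.78 CPM (SD, n = 3) in sgNeo codes and 74.2, 80.7 and 153 CPM in sgSetd2 codes. Of the 9 sgSetd2 tumours 8 were above the highest sgNeo tumour (48.6 CPM), and tumour 4 of CE479 with 10.3 CPM was not. Its log2 fold change was 3.12, SE 0.30, at an adjusted p of 0.00384. Among the 20 genes of the Steap family and iron handling, 3 were called, all higher: Steap4, Cp and the haem oxygenase Hmox1, which measured 143 ± 22.8 and 263 ± 31.2 CPM (adjusted p 0.0290) and did not overlap between tumours. The list's median was 0.16, and -0.03 without the 3 cycling sgNeo tumours. The fits that left out 1 code each all called 8 higher and 4 lower genes: the 5 higher genes above, 6330403K07Rik, Serpinb8 and Gpx8, and the lower genes Abcg2, Ndrg4, Gja3 and Tspan7. Among these are Serpinb8, an intracellular serine protease inhibitor (6.25 ± 0.693 and 23.8 ± 3.43 CPM, adjusted p 0.00801), Tspan7, a tetraspanin (49.7 ± 3.35 and 6.37 ± 3.27 CPM, adjusted p 0.00674), and Gpx8, a peroxidase of the endoplasmic reticulum (46.3 ± 3.01 and 98.6 ± 10.9 CPM, adjusted p 0.00674). Gpx8 had a log2 fold change of 1.09 with all tumours and 0.50 without the 3 cycling sgNeo tumours; these held 0.120 to 47.5 CPM and the other 6 sgNeo tumours 1.94 to 96.6 CPM.

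Acute-phase genes are those the liver raises in inflammation, with fibrinogen as the classical example. IL-6 family cytokines drive them through the receptor subunit gp130, the kinases JAK1 and JAK2 and the transcription factor STAT3, and SOCS3 is the feedback inhibitor. Of 15 acute-phase genes tested, 4 were called, all higher: Fga, Fgg, Cp and Hp. The genes for the alpha and gamma chains of fibrinogen, Fga and Fgg, lie 11 kb apart on chromosome 3. Fga measured 6.97, 11.5 and 8.16 CPM in sgNeo codes and 99.3, 35.0 and 135 CPM in sgSetd2 codes. Fgg measured 12.9, 22.7 and 11.5 CPM and then 126, 43.2 and 123 CPM. For both, 8 of 9 sgSetd2 tumours were above all sgNeo tumours, and tumour 4 of CE479 was not, with 4.06 CPM for Fga and 9.32 CPM for Fgg. Their log2 fold changes were 3.34 (SE 0.46, adjusted p 0.0115) and 2.63 (SE 0.48, adjusted p 0.0266). Without the 3 cycling sgNeo tumours these were 3.12 and 2.32, and the latter had an adjusted p of 0.0853. Fgb, the gene for the beta chain that a fibrinogen molecule also needs, did not pass the filter on low counts: it averaged 0.00210 and 0.117 CPM. Hp, for the haemoglobin scavenger haptoglobin, averaged 309 ± 77.4 and 666 ± 126 CPM (log2 fold change 1.11, adjusted p 0.0362). It was 0.58 without the 3 cycling sgNeo tumours.

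Of the 18 genes of IL-6 family receptors and STAT3 feedback, 2 were called, both higher. Socs3 measured 283, 309.9 and 299 CPM in sgNeo codes and 479.9, 468 and 487 CPM in sgSetd2 codes, which is a narrow spread within each group. By tumour the groups overlapped: 93.9 to 592 CPM in sgNeo and 379 to 652 CPM in sgSetd2, and only 1 sgSetd2 tumour was above all sgNeo tumours. Its rise of 0.69 on the log2 scale (adjusted p 0.0195, SE 0.11) was 0.22 without the 3 cycling sgNeo tumours, which measured 93.9 to 256 CPM. Osmr, the receptor subunit for oncostatin M, averaged 102 ± 10.2 and 205 ± 26.1 CPM (log2 fold change 1.01, adjusted p 0.0307), and 0.66 without them. Stat3 (333 and 401 CPM) and the gp130 gene Il6st (70.3 and 93.4 CPM) were not called, with adjusted p-values of 0.600 and 0.496. The list's median was 0.25.

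Promoter sequence is shown for the fibrinogen genes and Steap4, which, apart from Fgb, were above all sgNeo tumours in the same 8 sgSetd2 tumours. The bases given precede the RefSeq start site in GRCm38.p6, without those inside the annotated gene, 5′ to 3′ on the strand of the gene, at chr3:83025903-83026075 for Fga (plus strand), chr3:83007474-83007723 for Fgg (plus), chr3:83049864-83050113 for Fgb (minus) and chr5:7960222-7960456 for Steap4 (plus). Capitals mark matches to the STAT motif TTCNNNGAA, searched on both strands, which read the same.
Fga: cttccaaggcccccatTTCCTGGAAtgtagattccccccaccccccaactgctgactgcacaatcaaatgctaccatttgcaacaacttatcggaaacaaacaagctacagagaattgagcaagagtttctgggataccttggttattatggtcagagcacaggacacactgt
Fgg: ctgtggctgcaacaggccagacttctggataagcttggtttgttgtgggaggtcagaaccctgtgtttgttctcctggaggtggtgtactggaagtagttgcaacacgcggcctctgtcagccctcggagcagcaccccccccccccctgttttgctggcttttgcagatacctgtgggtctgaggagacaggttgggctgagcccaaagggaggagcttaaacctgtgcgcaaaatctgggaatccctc
Fgb: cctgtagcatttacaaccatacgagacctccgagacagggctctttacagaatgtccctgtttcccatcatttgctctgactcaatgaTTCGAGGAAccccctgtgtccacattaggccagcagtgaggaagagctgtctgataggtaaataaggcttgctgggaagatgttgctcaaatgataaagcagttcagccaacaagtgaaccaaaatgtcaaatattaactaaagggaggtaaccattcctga
Steap4: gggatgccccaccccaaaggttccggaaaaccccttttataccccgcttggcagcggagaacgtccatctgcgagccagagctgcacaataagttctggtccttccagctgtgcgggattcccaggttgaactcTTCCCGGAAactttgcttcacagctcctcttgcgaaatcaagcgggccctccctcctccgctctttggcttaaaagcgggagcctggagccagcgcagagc
Fga has 1 match, 234 bases before the start, Fgb has 1 at 162 bases and Steap4 has 1 at 116 bases, while Fgg has none. In 250 bases before the start, 2306 of 32851 promoters in the table hold such a match, 7.02%. Socs3 holds 1 as well, and Cp, Osmr, Retnla, Cyp2f2 and Ugt8a hold none. A match is a description of these letters, and Fgb, which holds one, was nearly silent in both groups. Hp is not in the table of sequences used here.

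A group of genes had next to no reads in sgNeo and was called in sgSetd2. Over the 9 sgNeo tumours 309 of the genes tested had at most 3 counts; 11 of these were called, all higher, and each of the 11 had 0 or 1 count. A gene this low in sgNeo is tested only where another group carries it and can only be called higher, so that direction is fixed by the choice. Of the 229 genes tested with at most 3 counts in sgSetd2, 1 was called, lower by the same rule: Pcdhb16, a clustered protocadherin, with 749 counts from 6 sgNeo tumours and 0 in sgSetd2 (at least 206-fold, adjusted p 0.0152), and with 1002 and 0 counts in Variant 3. The genes of both sets were examined after their values were seen, apart from Ugt8a and Sall1. Ugt8a (chr3:125865271-125938619), which makes galactosylceramide, the glycolipid of myelin and other membranes, had 1 count in all of sgNeo and 5486 counts in sgSetd2. Its sgSetd2 tumours ran from 0 to 44.4 CPM (median 15.2), with reads in 8 of 9; tumour 4 of CE479 had none. The ratio of normalised counts was 6655, with a 95% counting interval of 1194 to 262921, which covers counting error only. No other enzyme among the 29 of glycosphingolipid metabolism was called higher, although 21 of the 29 had a positive fold change (median 0.20). Cers6, a ceramide synthase, was the 1 called lower and fell from 60.7 ± 0.719 to 20.7 ± 8.84 CPM (adjusted p 0.0222).

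Nkx2-2 (chr2:147177546-147194243), a homeobox factor of neural tube and endocrine pancreas, had 0 counts in sgNeo and 779 in sgSetd2. Reads were found in all 9 sgSetd2 tumours, at 0.251 to 5.23 CPM, and the codes measured 1.02, 3.54 and 2.88 CPM. The level was at least 315-fold higher than the floor of 3 counts over the group, and the adjusted p was 0.0487. Cdh4, for R-cadherin, had 0 and 370 counts with reads in 9 of 9 sgSetd2 tumours (at least 150-fold, adjusted p 0.0245). Nap1l2, a histone chaperone gene, had 0 and 469 counts, again in 9 of 9 (at least 190-fold, adjusted p 0.0245). Itga4, for the integrin alpha 4 subunit, had 1 and 212 counts and reads in 9 of 9 sgSetd2 tumours (ratio 257, counting interval 45.7 to 10206). Its neighbour Cerkl, whose annotation overlaps that of Itga4, was called higher too, so reads of these genes cannot be told apart where they overlap.

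Others came from fewer tumours. Gmnc, for the geminin-family protein that starts the multiciliated cell program, had 0 and 444 counts from 8 of 9 tumours, and Rundc3b 0 and 289 counts from 8. Dmrtc1a had 1 and 169 counts from 7 tumours, Lrriq1 0 and 689 counts from 6 and Mamdc2 0 and 108 counts from 4. Sall1 (chr8:89027235-89044162), a zinc finger repressor of kidney and limb development, had 1 and 1704 counts: 6 of 9 sgSetd2 tumours carried reads, at up to 16.5 CPM, and its adjusted p was 0.0368. Sall1 and Lrriq1 were not silent in Variant 3 sgNeo, with 478 counts from 3 tumours and 54 counts from 2. Variant 3 sgSetd2 held 3790 and 1526 counts, and neither gene was called there (edgeR adjusted p 0.440 and 0.165). Most of these genes are low even where they are present, and in bulk cells a low level in all cells and a higher level in few cells cannot be told apart; the same holds for fewer cells of a type and less RNA per cell in every result here.

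**Figure D3:**
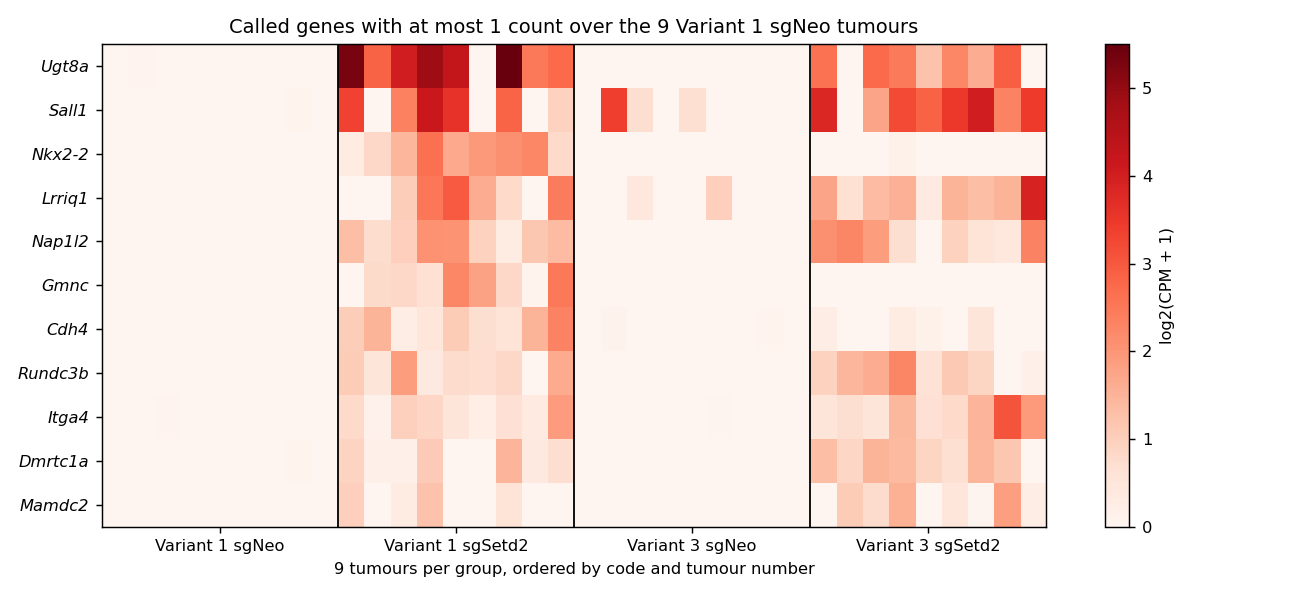
Level, as log2(CPM + 1), of the 11 called genes with at most 1 count over the 9 Variant 1 sgNeo tumours; each row is a gene and each column 1 of the 36 tumours, 9 per group, with darker red for higher levels. The first block (Variant 1 sgNeo) is blank; Ugt8a fills 8 of 9 columns of the second (Variant 1 sgSetd2), and Nkx2-2, Gmnc and Cdh4 are blank or nearly so in both Variant 3 blocks.

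Several higher genes were abundant in both groups. Lyz2, for the lysozyme of AT2 cells and macrophages, measured 7118, 6581 and 8617 CPM in sgNeo codes and 19275, 15958 and 29871 CPM in sgSetd2 codes. The sgNeo tumours spread from 369.6 to 17424 CPM and the sgSetd2 tumours from 12073 to 31095 CPM, so the groups overlapped. On the log2 scale the rise of 1.54 (adjusted p 0.0245, SE 0.27) was 1.01 without the 3 cycling sgNeo tumours, with an adjusted p of 0.411. A gene copy, Lyz1, is close in sequence, and the counting may have split reads between them. Chil1, a chitinase-like secreted protein, averaged 6274 ± 944 and 12954 ± 1113 CPM (log2 fold change 1.05, adjusted p 0.0262). Wfdc2, a secreted protease inhibitor of airway cells, measured 553, 606 and 575 CPM in sgNeo and 1237, 979.7 and 1315 CPM in sgSetd2 codes. In 8 of 9 sgSetd2 tumours it was above all sgNeo tumours (log2 fold change 1.03, SE 0.14, adjusted p 0.0115). These are the 3 members called, all higher, of 16 secreted defence genes, whose median was 0.95 with all tumours and 0.53 without the 3 cycling ones.

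Further abundant genes were C6, a component of the complement pore, the lysosomal protease gene Ctsc and the adenylate cyclase gene Adcy7. C6 averaged 119 ± 29.7 and 507 ± 173 CPM over the codes (log2 fold change 2.10, SE 0.31, adjusted p 0.0142). Its sgNeo tumours ranged from 3.72 to 349.6 CPM and overlapped the sgSetd2 tumours, 172 to 718 CPM. Ctsc averaged 1985 ± 259 and 4928 ± 1064 CPM, and Adcy7 166 ± 39.0 and 446 ± 118 CPM, with adjusted p-values of 0.0328 and 0.0149. Ret, a receptor tyrosine kinase for GDNF family ligands and itself a fusion partner in lung cancer, measured 12.3, 17.3 and 14.9 CPM in sgNeo and 39.7, 26.6 and 45.9 CPM in sgSetd2 codes (adjusted p 0.0245), with 8 of 9 sgSetd2 tumours above all sgNeo tumours. Anpep, the brush-border aminopeptidase N, measured 17.9, 19.1 and 26.0 CPM and then 64.9, 59.2 and 94.8 CPM (adjusted p 0.0160). Mrc2, an endocytic collagen receptor, averaged 14.3 ± 4.17 and 103 ± 35.1 CPM (log2 fold change 2.86, adjusted p 0.0115).

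MHC class I molecules carry peptides to the cell surface as a heavy chain bound to beta-2 microglobulin. Of the 21 presentation genes tested, 6 were called, all higher: B2m, H2-D1, H2-K1, H2-Q4, H2-Q6 and H2-Q7. B2m (chr2:122147686-122153083), the shared light chain, measured 903, 646 and 812 CPM in sgNeo codes and 1943, 2462 and 2531 CPM in sgSetd2 codes (log2 fold change 1.55, SE 0.27, adjusted p 0.0245). Its tumours overlapped: 117 to 1849 CPM in sgNeo, with the 3 cycling tumours between 117 and 596, and 1158 to 3344 CPM in sgSetd2. H2-D1 measured 1243, 1131 and 1418 CPM and then 2736, 2685 and 2862 CPM (log2 fold change 1.13, adjusted p 0.0142), and 8 of 9 sgSetd2 tumours were above all sgNeo tumours. H2-K1 averaged 858 ± 129 and 1909 ± 129 CPM. Tap1, the peptide transporter, averaged 27.2 ± 6.47 and 45.8 ± 2.31 CPM and was not called (adjusted p 0.222). Without the 3 cycling sgNeo tumours none of the 6 stayed under the threshold; B2m then had a log2 fold change of 0.94, H2-D1 0.63 and H2-K1 0.60. The list's median was 0.66 with all tumours and 0.45 without them. H2-Q4, H2-Q5, H2-Q6 and H2-Q7 are neighbours on chromosome 17, and H2-Q6 shares 13.9% of its 50-base stretches with H2-Q7, so the split of reads between them is uncertain.

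The interferon response list holds genes induced by type I and II interferons. Of 34 tested, 1 was called, Irf7, the amplifying transcription factor of that response. It measured 4.99, 4.75 and 4.55 CPM in sgNeo codes and 18.3, 19.8 and 11.8 CPM in sgSetd2 codes (log2 fold change 1.80, SE 0.39, adjusted p 0.0486), and it is not called once the 3 cycling sgNeo tumours are left out (adjusted p 0.172). Of the 34, 32 had a positive fold change, and the median was 1.09, or 0.78 without those tumours. Over all genes tested the median was -0.01 and 1.42% were called, and the share with a positive fold change was not computed. The mean log2(CPM + 1) over the list was 2.28 to 3.21 in the sgNeo tumours and 3.04 to 4.41 in the sgSetd2 tumours, where tumour 4 of CE479 was lowest. Isg15 averaged 2.98 and 9.76 CPM and Ifit3 4.98 and 24.5 CPM, with adjusted p-values of 0.0879 and 0.225. Ifitm3, an antiviral membrane protein outside that list, was called: 23.5 ± 6.03 against 107 ± 44.0 CPM (log2 fold change 2.19, SE 0.33, adjusted p 0.0154), with all 9 sgSetd2 tumours (up to 183 CPM) above all 9 sgNeo tumours (5.04 to 33.2 CPM).

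B2m is shown as the promoter of this group that holds the interferon-stimulated response element, GAAANNGAAA on either strand, in capitals, 5′ to 3′ on the plus strand at chr2:122147437-122147685.
B2m: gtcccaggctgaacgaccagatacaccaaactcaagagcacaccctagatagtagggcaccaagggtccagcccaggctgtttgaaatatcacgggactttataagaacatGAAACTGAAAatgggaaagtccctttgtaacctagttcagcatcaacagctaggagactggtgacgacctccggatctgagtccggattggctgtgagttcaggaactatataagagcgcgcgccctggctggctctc
The match begins 139 bases before the start. Of 32851 promoters 978 hold one within 250 bases, 2.98%. None was found in these windows of H2-D1, H2-K1, H2-Q4, H2-Q6, H2-Q7, Tap1, Irf7 or Ifitm3.

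Epithelial cell type genes were read next, since Cyp2f2 marks club cells, the secretory cells of the airway. Of 15 club cell genes 2 were called, both higher: Cyp2f2 and Hp. The mean log2(CPM + 1) over the list was above all 9 sgNeo tumours (2.09 to 3.32) in all 9 sgSetd2 tumours (3.67 to 5.59), and the 3 tumours of CE479 had the highest values, 4.71 to 5.59. The list's median log2 fold change was 1.74, and 1.97 without the 3 cycling sgNeo tumours. Scgb1a1, the defining secretoglobin of club cells, averaged 36.1 ± 35.7 CPM in sgNeo codes and 120.2 ± 153 CPM in sgSetd2 codes; the groups overlapped and it was not called (adjusted p 0.601). Cbr2, a carbonyl reductase, averaged 204 and 739 CPM, with an adjusted p of 0.364.

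None of the 14 ciliated cell genes was called, although all 14 had a positive fold change, with a median of 2.79, or 2.27 without the 3 cycling sgNeo tumours. Over the list the sgSetd2 tumours had means of 1.06 to 4.45 on the log2(CPM + 1) scale and the sgNeo tumours of 0.379 to 1.65. The highest values came from CE479: 4.45 in tumour 1 and 3.05 in tumour 4, while its tumour 2 had 1.53, and the groups overlapped. Tppp3 averaged 4.79 and 34.3 CPM (adjusted p 0.0590), with sgSetd2 codes at 12.1, 73.6 and 17.2 CPM. Foxj1, the master regulator of motile cilia, averaged 1.83 and 10.5 CPM (adjusted p 0.191). Its codes measured 2.72, 0.695 and 2.08 CPM in sgNeo and 2.97, 24.5 and 4.14 CPM in sgSetd2. For both genes the highest code was CE479. The part of airway cells within the sorted samples in the club cell and Gmnc values was not tested.

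Of 20 AT2 cell genes 3 were called, all higher: Lyz2, Chil1 and S100g, a calcium-binding protein (113 ± 16.9 and 291 ± 99.9 CPM, adjusted p 0.0299). Sftpc averaged 86256 ± 9195 and 100539 ± 19778 CPM (adjusted p 0.651), and the surfactant genes Sftpa1, Sftpb and Sftpd were not called. The list's median of 0.43 was 0.05 without the 3 cycling sgNeo tumours, 2 of which were among the 3 lowest of the 18 in mean AT2 expression. Napsa, the aspartic protease that processes surfactant protein B, went the other way. It measured 735, 779 and 962 CPM in sgNeo codes and 349, 417 and 516 CPM in sgSetd2 codes. The log2 difference of -0.95 had an adjusted p of 0.0940. Without the 3 cycling sgNeo tumours, which held 59.7 to 517 CPM, the value was -1.73 and was called (adjusted p 0.0427). Epdr1, Prss35, Olfml3 and Chic1 were called higher in that fit and not with all tumours; they were named for this after their values were seen. Epdr1 averaged 14.8 ± 2.88 and 35.1 ± 12.7 CPM, with a log2 fold change of 1.24 with all tumours and 3.10 without the 3. No gene of the AT1 cell, Krt8-high transitional, tuft, basal or lineage transcription factor lists was called.

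**Figure D4:**
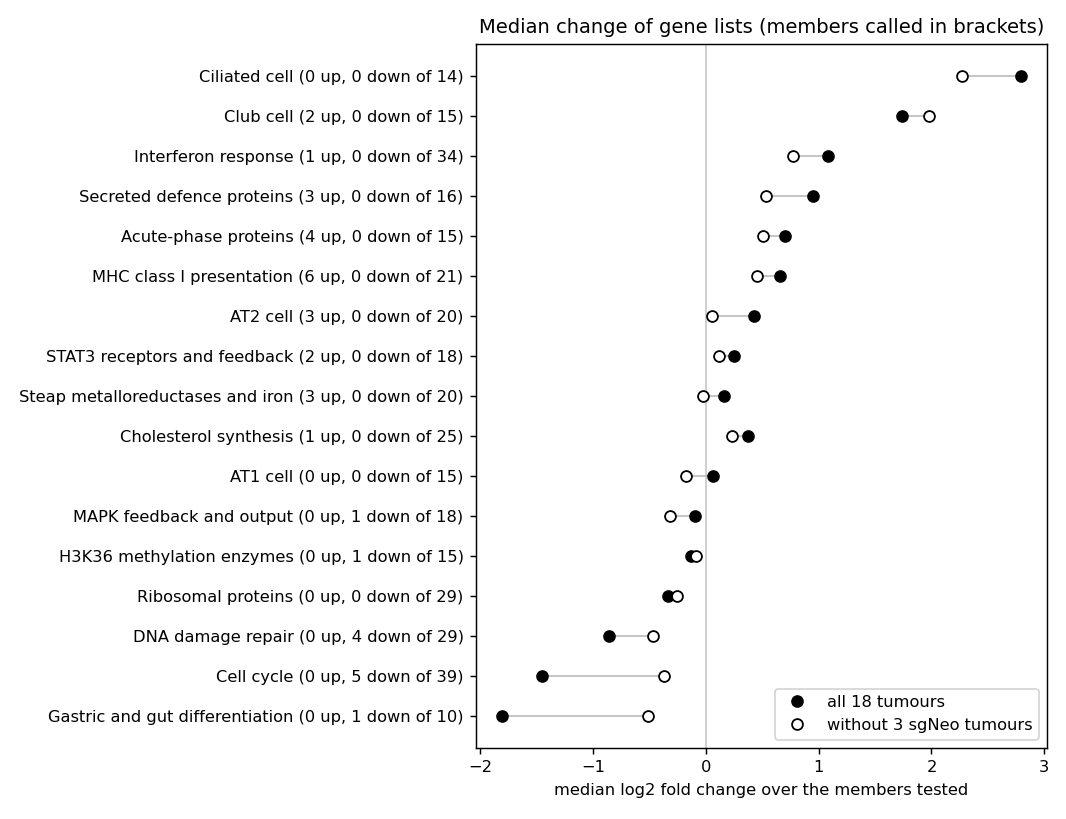
Median log2 fold change (sgSetd2 over sgNeo) over the tested members of 17 gene lists, with all 18 tumours (filled) and without the 3 sgNeo tumours highest in cell cycle genes (open); brackets give the members called. The club and ciliated lists stay between 1.74 and 2.79, and the cell cycle list moves from -1.45 to -0.37.

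Lower genes are described in 2 sets, those that were highest in the 3 cycling sgNeo tumours and those also low against the other 6 sgNeo tumours. Col18a1, the collagen that yields endostatin, belonged to the former. It measured 257, 577 and 859 CPM in sgNeo codes and 56.8, 95.9 and 67.3 CPM in sgSetd2 codes (log2 fold change -2.94, SE 0.55, adjusted p 0.0280). The 3 cycling sgNeo tumours stood at 448 to 1825 CPM, the other 6 at 44.2 to 174 CPM and the 9 sgSetd2 tumours at 44.2 to 119 CPM, and without the 3 the log2 fold change was -0.59. Abcg2, a drug efflux pump, had the same form: 38.7 to 100.5 CPM in the 3, 0 to 7.74 CPM in the other 6 and 0.0418 to 3.43 CPM in sgSetd2. At an adjusted p of 0.00674 it fell by 4.52 (log2, SE 0.53), and had -0.73 without the 3. Ak1, adenylate kinase of the cytosol, measured 117 to 291, 17.2 to 47.7 and 21.5 to 59.4 CPM in these tumours, with a log2 fold change of -2.10 that was -0.15 without the 3.

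Pf4, a chemokine of platelets, stood at 203 to 723 CPM in the 3, 27.0 to 87.6 in the other 6 and 15.7 to 97.9 CPM in sgSetd2 (log2 fold change -2.90, adjusted p 0.0427). It was the 1 called of 6 erythroid and platelet markers tested. Ddc, the amine-synthesising decarboxylase, stood at 28.3 to 37.5, 0 to 4.49 and 0 to 1.18 CPM (log2 fold change -5.17, adjusted p 0.0114), and Pgc, the gastric pepsinogen C, at 5.78 to 66.6, 0 to 1.97 and 0 to 0.545 CPM (-7.05, adjusted p 0.0245). Habp2, a secreted serine protease, stood at 38.8 to 447, 2.06 to 30.3 and 0 to 39.0 CPM (-3.51, adjusted p 0.0245). For each of these 7 genes all 3 cycling tumours were above all other sgNeo tumours.

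Muc20, a membrane mucin, belonged to the others. It measured 52.5, 84.6 and 107 CPM in sgNeo codes and 5.82, 13.1 and 4.08 CPM in sgSetd2 codes. The 6 other sgNeo tumours held 21.7 to 82.6 CPM and the sgSetd2 tumours 0.834 to 22.5 CPM, and 8 of 9 sgSetd2 tumours lay below all sgNeo tumours. At an adjusted p of 0.0314 it fell by 3.41 (log2, SE 0.65), and had -2.69 without the 3. Ros1, an orphan receptor tyrosine kinase, measured 119.6, 146 and 220.0 CPM and then 63.3, 67.7 and 57.5 CPM, a change of -1.36 (adjusted p 0.0160) that was -1.14 without the 3. Qpct, for glutaminyl cyclase, averaged 152 ± 51.9 and 65.1 ± 7.51 CPM (-1.22, adjusted p 0.0443). Rian, a maternally expressed noncoding RNA of the imprinted Dlk1 domain, measured 107, 154 and 108 CPM and then 29.1, 28.1 and 8.77 CPM. Its log2 fold change was -2.48 with and without the 3 (adjusted p 0.0334 with all tumours).

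Gja3, the gap junction protein connexin 46, measured 13.4, 20.2 and 27.0 CPM in sgNeo codes and 4.15, 3.57 and 2.19 CPM in sgSetd2 codes. At an adjusted p of 0.00674 it fell by 2.61 (log2, SE 0.30), and by 1.93 without the 3. Tumours overlapped, at 3.99 to 40.4 and 0.250 to 7.37 CPM. Gfer, a sulfhydryl oxidase of mitochondrial protein import, and Gcdh, the mitochondrial glutaryl-CoA dehydrogenase, had small changes that separated every tumour. Gfer ran from 26.6 to 39.2 CPM in sgNeo and from 13.5 to 24.8 CPM in sgSetd2, a log2 fold change of -0.86 (adjusted p 0.0166). Gcdh ran from 28.0 to 45.8 and from 15.9 to 27.1 CPM, a log2 fold change of -0.69 (adjusted p 0.0299). Without the 3 these values were -0.84 and -0.73.

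Cell cycle genes are described only, since the same list picked out the 3 sgNeo tumours, and a smaller difference without them follows from that choice. Of 39 genes 5 were called, all lower: the cyclin gene Ccna2, the mitotic kinases Cdk1, Aurkb and Bub1, and the replicative helicase subunit Mcm7. All 39 had a negative fold change, with a median of -1.45, and of -0.37 without the 3. Ccna2 measured 20.4, 15.9 and 19.5 CPM in sgNeo codes and 3.42, 4.50 and 2.67 CPM in sgSetd2 codes. By tumour it was 20.9 to 35.3 CPM in the 3, 2.85 to 11.5 CPM in the other 6 and 1.70 to 7.03 CPM in sgSetd2 (log2 fold change -2.40, adjusted p 0.0195, and -1.20 with an adjusted p of 0.315 without the 3). Mki67, the proliferation marker, averaged 30.8 ± 3.05 and 14.6 ± 3.68 CPM and was not called (adjusted p 0.176).

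Of 29 DNA repair genes 4 were called, all lower, among them the helicase gene Blm and the DNA ligase gene Lig1. Lig1 averaged 19.5 ± 3.3 and 6.91 ± 1.35 CPM (log2 fold change -1.49, adjusted p 0.0142) and had -0.38 without the 3. The list's median was -0.86, and -0.47 without the 3. Etv4, a transcription factor induced by MAPK signalling, was the 1 gene called of 18 in the MAPK list: 27.6 ± 4.62 and 15.4 ± 2.91 CPM (-0.84, adjusted p 0.0351). It was -0.27 without the 3. Phgdh, the first enzyme of serine synthesis, averaged 32.5 and 8.65 CPM (-1.91, adjusted p 0.0142) and had -1.23 without the 3. Vil1, for the microvillus protein villin, averaged 5.58 ± 0.549 and 0.325 ± 0.0868 CPM (-4.10, adjusted p 0.0325) and had -3.58 without the 3.

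Of the 284 genes, 277 are protein-coding, 1.88% of the 14729 protein-coding genes tested, and none of 1282 processed pseudogenes or 977 antisense genes was called. In 12 pairs 2 called genes lie within 100 kb of each other, and in all 12 both moved the same way. Besides Fgg with Fga and the H2-Q genes these include Rbp4, the retinol carrier, with Ffar4, a receptor for long-chain fatty acids, both higher and 2.37 kb apart, and Ddc with Fignl1, both lower and 5.14 kb apart. The H2-Q genes enter several of the 12 pairs. How often neighbours move the same way over all genes tested was not computed. Whether the counting used strand is not stated, so reads of overlapping or close genes may be shared.

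The same guides were also compared in Variant 3 tumours, which share no sample with those of Variant 1. There 299 genes were called (1.49%), 176 higher (0.880%) and 123 lower (0.615%). Of the 140 genes higher in Variant 1, 133 had the same sign in Variant 3 and 60 were called in the same direction. Of the 144 lower genes 139 had the same sign and 41 were called, and no gene was called in opposite directions. The share of all genes tested with the same sign in both variants was not computed. The 101 genes called in both are 35.6% of the Variant 1 calls and 33.8% of the Variant 3 calls. Over the Variant 1 calls the median log2 fold change in Variant 3 was 1.01 for the higher and -0.79 for the lower genes. For 115 of the higher and 100 of the lower genes the Variant 3 codes did not overlap either, in the same direction. The share of all genes tested whose Variant 3 codes do not overlap was not computed, so these counts lack a baseline. In Variant 1 that share was 11.7% in the higher and 12.3% in the lower direction.

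Among the leading genes, Ugt8a had 0 counts in Variant 3 sgNeo and 1868 counts in sgSetd2, and Itga4 1 and 1309. Retnla averaged 45.5 ± 15.4 and 7578 ± 1246 CPM there (log2 fold change 7.38, adjusted p 0.000348), Steap4 7.70 ± 1.25 and 147 ± 31.6 CPM (4.26, adjusted p 0.000196) and Fga 6.69 ± 1.73 and 147 ± 49.9 CPM (4.45, adjusted p 0.00187). Col18a1 had -3.15 and Ak1 -3.49 in Variant 3, both called. In Variant 1, Ak1 had -0.15 without the 3 cycling sgNeo tumours. In that fit its Variant 1 change minus its Variant 3 change was 3.34 on the log2 scale and was called (edgeR adjusted p 0.0358). The cell cycle median in Variant 3 was -0.22 with none of the 39 called. The club cell median was -0.09 and the ciliated cell median 0.74.

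The test of the difference between the variants (Variant 1 change minus Variant 3 change) called 0 genes by edgeR (0.00%), with 1200 at an unadjusted p under 0.05, of which 90 are among the 284. DESeq2 called 114 genes and limma voom 7. The 284 were chosen by their Variant 1 change, which is part of this difference, so the 90 are no test of it. The smallest adjusted p among the Variant 1 calls was 0.385, for Wfdc2, which measured 833 ± 23.9 and 794 ± 98.0 CPM in Variant 3 (log2 fold change -0.07). Other called genes with a small Variant 3 value were Hp (-0.09), Ifitm3 (0.44), and Gpam, an enzyme of triglyceride synthesis, which measured 12.6, 13.3 and 10.2 against 54.2, 36.5 and 81.2 CPM in Variant 1 and 5.60 ± 1.84 and 7.30 ± 2.20 CPM in Variant 3. For none of these was the difference between variants called.

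Nkx2-2 had 0 counts in Variant 3 sgNeo and 6 in Variant 3 sgSetd2, from 1 of 9 tumours, against 779 from 9 of 9 in Variant 1 sgSetd2. Gmnc had no counts in Variant 3, and Cdh4 had 5 and 46. The difference between variants for Nkx2-2, which has no counts in either sgNeo group, had an adjusted p of 1.00 by edgeR, 0.000676 by limma voom and 0.775 by DESeq2. Cfap52, a gene of motile cilia, is the reverse case, named after its values were seen. It averaged 5.61 ± 1.78 and 7.54 ± 2.45 CPM in Variant 1 (log2 fold change 0.43, adjusted p 0.527) and 21.3 ± 1.41 and 2.79 ± 0.625 CPM in Variant 3 (-2.93, adjusted p 0.00187). The difference was 3.36 on the log2 scale, with an adjusted p of 0.0982 by edgeR, 0.00351 by limma voom and 5.97e-11 by DESeq2.

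**Figure D5:**
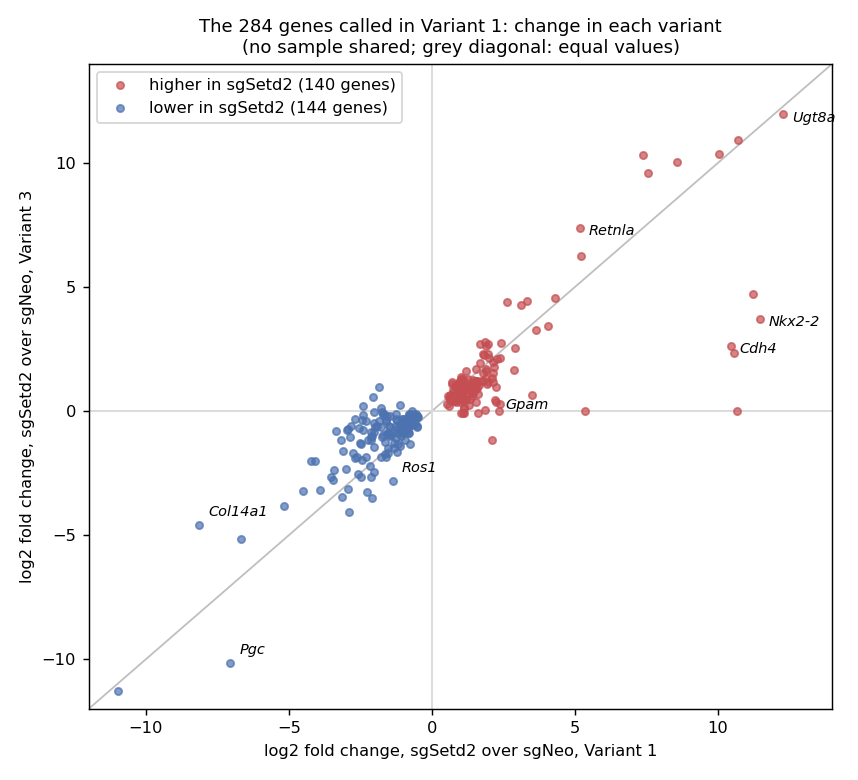
The log2 fold change (sgSetd2 over sgNeo) of the 284 genes called in Variant 1 (horizontal axis) and the change of the same genes in Variant 3 (vertical axis); each point is 1 gene, red for the 140 higher and blue for the 144 lower genes in Variant 1, and the grey line marks equal values. 133 red points lie above 0 and 139 blue points below 0 on the vertical axis.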

How the data were processed

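RNA from sorted neoplastic mouse lung cells was amplified with a SMART-Seq kit and sequenced as paired reads (per the labels' protocols). Values are whole-number counts per gene and tumour, not normalized, in a single table as the authors deposited it. Per the submitters' processing notes, the tools were STAR 2.5.3a for alignment, DESeq2 1.38.3 and R 4.2. Which counter, strand setting and genome build were used is not given in the sources used here. Of 49585 gene IDs 49326 matched symbols of GENCODE mouse release 21 (GRCm38), which supplied all gene coordinates. No columns were left without a sample, and no libraries were identical.

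The 3 tumours of a code were summed. All 12 codes of the 4 groups entered 1 fit, which shares its estimate of spread: genes kept by filterByExpr, TMM scaling and the robust quasi-likelihood test of edgeR 4.0.16 in R 4.3.3, with Benjamini-Hochberg adjustment over 20009 genes. The SE of a log2 fold change is its size over the square root of F. Tumour CPM used TMM over the 36 tumours. Medians of gene lists and their means of log2(CPM + 1) describe the lists and are not tested. The shares of all genes tested by sign of the fold change were not computed, so counts of signs lack a baseline. On simulated counts with the real depths and spread, the test on 19255 genes found, for this comparison, 18% of genes changed 2-fold and 36% of those changed 4-fold, with 1 false call. Total counts ranged from 17.9 M to 77.1 M per Variant 1 tumour; counting intervals and the floor of 3 counts over a group cover counting error only.

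Named genes were those with the largest difference in mean CPM (12 each way), the smallest p among genes called in all 6 fits without a code (10), the largest fold change (10) and the smallest p for the difference between variants (5), at 5 CPM or more, plus called members of the gene lists and the H3K36 enzymes. Others are named as the context of a list or because their values stood out, and were chosen after their values were seen. The groups, gene lists and rules were chosen with earlier results of these data known. Alternatives were other scalings (RLE, upper quartile), filters, a minimum fold change, a sex covariate, Variant 1 alone, DESeq2 1.42.0, limma 3.58.1 on means and voom on tumours, and leaving out codes or tumours. Promoters come from RefSeq (GRCm38.p6).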

Additional observations from a re-analysis of the deposited data

Results flagged for a closer look

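The highest or lowest tumour stood apart from the rest of its group in 14 of 94 checks over 47 genes, by Dixon's test at its 95% critical value. Chance gives about 1 in 20 for separate checks of normally distributed values. These checks reuse the same tumours, and a group whose only signal is a single count is always flagged. The 14 can therefore not be weighed against that rate. Tumour 4 of CE479 accounts for 7 of the 14. Among the 9 sgSetd2 tumours it was lowest for Fga at 4.06 CPM (next 35.0), Fgg at 9.32 (next 55.5), Steap4 at 10.3 (next 55.6), Serpinb8 at 7.97 (next 15.7) and H2-D1 at 1560 CPM (next 2490), and highest for Ak1 at 59.4 CPM (next 35.8) and Col14a1, a fibril-associated collagen, at 1.21 CPM (next 0.128). In all 7 its value lay towards that of sgNeo. Retnla reached 18600 CPM in tumour 2 of CE479, against 5400 CPM in the next sgSetd2 tumour.

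In sgNeo, tumour 2 of CE472, 1 of the 3 cycling sgNeo tumours, was lowest for Hp at 27.3 CPM (next 236), Serpinb8 at 0 CPM (next 5.10) and Togaram2 at 5.03 CPM (next 15.9). Bex4 was lowest in tumour 4 of CE468 at 0.0405 CPM (next 46.6). A single count was the only sgNeo signal of Sall1 (0.0606 CPM, tumour 4 of CE472) and of Ugt8a (0.0418 CPM, tumour 2 of CE467), with 0 in the other 8 tumours.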

How the results depend on the processing

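Among 36 alternatives, 260 of the 284 genes kept their sign in all; for the genes named, 2564 comparisons with an alternative stayed on their side of the threshold, 1278 lost the call and 0 reversed. Counts below are genes called, genes higher, genes lower, called genes also passing in Variant 3, and genes called for the interaction, the difference between variants (284, 140, 144, 101 and 0 as reported). The filter of 5 CPM in 3 codes gave 522, 281, 241, 199 and 1, and no filter gave 1 for the last. A minimum log2 fold change of 1 gave 10, 5, 5 and 5. With sex as a covariate there were 102, 49, 53 and 37. DESeq2 gave 1500, 748, 752, 485 and 114, of which 282 are among the 284, and voom on tumours 511, 357, 154, 213 and 7, of which 150 are. Both called Setd2, at log2 fold changes of -0.84 and -0.82 (adjusted p 0.00751 and 0.0158). limma on code means called 205 genes, 68 of them lower, and 112 of the 205 are among the 284. The fit of the Variant 1 codes alone called 213 genes, of which 133 are among the 284. The other genes of the 284 lost their call in these fits. Scaling moved the median of all genes by at most 0.02 on the log2 scale.

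Without the 3 cycling sgNeo tumours the counts were 15, 13, 2, 13 and 1. Without the most cycling tumour of each of the 6 codes, an alternative chosen after seeing the data, they were 13, 13, 0, 11 and 1. In both the 1 gene called for the difference between variants was Ak1. Leaving out 1 code or tumour gave 16 to 495 genes called, 11 to 224 higher, 5 to 271 lower, 11 to 139 also in Variant 3 and 0 to 1 for the difference. Calls fell to 16 without CE483, 19 without CE475, 17 without tumour 2 of CE472 and 51 without tumour 1 of CE468, and rose to 495 without tumour 4 of CE479 and 445 without tumour 6 of CE472; the cause was not tested. No paired analysis was possible because the codes and tumour numbers of the 2 groups name different samples and share no replicate numbers that pair them. With 3 codes per group and amplified RNA, genes under a few CPM, such as Nkx2-2 or Gmnc, rest on few counts per tumour.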
